A study of Caenorhabditis elegans with 7 samples.

Results

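The genes described here are the nuclear hormone receptor genes of Caenorhabditis elegans that carry an nhr number as their name and stand in the deposited comparison table of dietary restriction and ad libitum progeny, with nhr-23 left out. They numbered 209 of the 44968 annotated features that were counted. Poly(A) RNA of starved L1 larvae (the first larval stage) was sequenced. The strain was the wild type N2, kept at 20 °C on OP50 bacteria. In the DR group (4 libraries, A to D) the parents had grown under dietary restriction in S-complete liquid with HB101 bacteria at 3.1, and in the AL group (3 libraries, A to C) they had fed ad libitum at 25. A notes sheet with the deposited data has mg per mL for both diets, whereas the sample labels give the DR amount in ml per mL. All parents spent 96 hr in culture at 1 embryo per 100 µL, and their embryos, freed by bleaching, stood in S-basal at 1 per µL. The larvae of both groups were collected and frozen 24 hr later and had met no food themselves. The submitters describe the libraries as biological replicates.

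Nuclear hormone receptors are transcription factors with a zinc-finger DNA-binding domain and a domain that can bind small lipophilic molecules such as steroids, fatty acids or dietary metabolites. Nematodes carry a far larger family than insects or mammals, most of it derived from an ancestor like the HNF4 receptor. A smaller set of C. elegans receptors has clear counterparts in flies and mammals and acts in development, and several receptors of the expanded set couple diet, fasting, fat metabolism or toxins to gene expression. The ligands of most members are unknown, and many have no described function. Roles below are those described in C. elegans unless another species is named.

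The deposited table lists genes with CPM (counts scaled to a common library size) above 1 in 3 libraries, so weakly expressed receptors are missing from it. A further 68 numbered receptor genes were counted but are not in that table, and 9 of them had no read in any library. The strongest of these, nhr-181, averaged 0.935 CPM, just below the weakest genes inside the table, nhr-239 at 1.02, nhr-199 at 1.05 and nhr-149 at 1.07 CPM. Every one of the 209 genes passed the filter on low counts used for the test, and the lowest count of a member in a library was 10. An annotation of the genome held 208 of them, 8 of these as pseudogenes. By that annotation 61 members overlap a gene on the opposite strand and 26 a gene on their own strand. These overlaps were taken on whole gene spans, introns included, and some partners are short RNA genes such as piRNAs or transfer RNAs. The library kit did not keep the strand, so reads from bases that exons of both genes share cannot be told apart. How many members share exon bases was not counted. The files do not show how reads that fit several near-identical receptor genes were placed, and levels of close paralogs are uncertain for that reason.

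Counts in features came to between 16626117 and 20874237 per DR library and between 16805120 and 22952310 per AL library. A count of 0 allows up to 0.144 to 0.180 CPM in a DR library and up to 0.131 to 0.179 CPM in an AL library, counting error only. Ribosomal RNA took 11.01% to 12.2% of the counts in DR A, B and C, 22.5% in DR D and 7.54% to 11.8% in AL libraries. Yolk protein genes of adults stood high in DR C, where vit-2 had 290 CPM. File names carry 2 prefixes: the first is shared by DR A, DR B, DR C and AL A, the second by DR D, AL B and AL C, and the labels do not say what they stand for. The receptor genes together took 0.370% to 0.445% of the counts in DR libraries and 0.420% to 0.449% in AL libraries. Without ribosomal RNA their share was 0.461% to 0.5001% in DR and 0.477% to 0.492% in AL libraries, and the groups overlapped.

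Starved larvae of both groups expressed the family at modest levels, led by a few abundant receptors. The median member had 10.3 CPM, with quartiles at 4.65 and 23.3 CPM. Per length of annotated exon the median level was 6.70 CPM per kb, against 8.40 CPM per kb over all tested genes with a known length. The 27 members with a role listed below had a median level of 13.6 CPM per kb, and the other 181 members with a length had 6.38 CPM per kb.

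The highest level per length was that of nhr-88, at 60.4 ± 12.5 CPM per kb in DR progeny (SD, n = 4) and 77.3 ± 1.08 CPM per kb in AL progeny (SD, n = 3). The gene had 218, 210, 199 and 132 CPM in DR A, B, C and D, against 239, 245 and 246 CPM in AL A, B and C. Every DR library lay below every AL library, DR D by far the most, and the log2 fold change of DR over AL was −0.36 ± 0.15 (SE; adjusted p = 0.435, edgeR). It was −0.18 without DR C and DR D together, and −0.13 with each library's ribosomal RNA share as a covariate. Among libraries of the first file-name prefix, which has AL A as its lone AL library, it was −0.20. Among those of the second, with DR D as the lone DR library, it was −0.88. Several non-coding RNAs lie opposite nhr-88, and their part in its counts was not tested.

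Next in level per length came nhr-1 (62.4 CPM per kb over all libraries), nhr-40 (60.6), nhr-49 (59.7), nhr-18 (58.7) and nhr-46 (52.9). These differ in level by less than the spread of nhr-18 between DR libraries, 11.2 CPM per kb. The gene nhr-49 encodes a receptor with functions like those of mammalian PPAR alpha, which adapts fat metabolism to fasting. It had 122, 121, 122 and 131 CPM in the DR libraries and 140, 129 and 128 CPM in the AL libraries, so that the groups overlapped (log2 fold change −0.10 ± 0.09, SE). The gene nhr-40, which acts in embryonic and muscle development, had 121, 121, 116 and 122 CPM in DR and 116, 113 and 113 CPM in AL libraries. Its groups did not overlap, yet the log2 fold change was 0.08 ± 0.08 (SE; adjusted p = 0.760, edgeR). Likewise nhr-46 had 129 to 139 CPM in DR and 123 to 127 CPM in AL libraries, without overlap and with a log2 fold change of 0.09. At the other end, nhr-199 had a level of 0.861 CPM per kb.

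**Figure D1:**
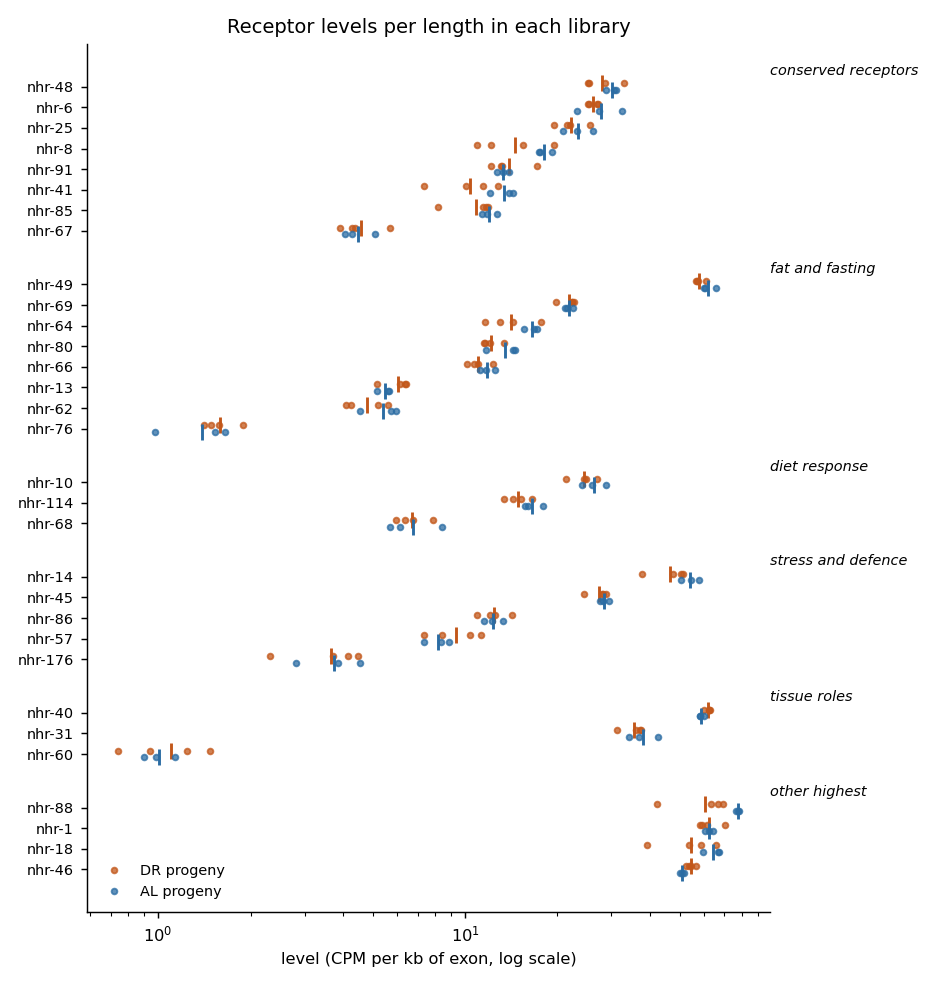
Level of the 27 receptors with a listed role and of 4 further receptors of high level, in CPM per kb of exon on a log axis. Each point is a library, orange for DR progeny (upper row of a gene) and blue for AL progeny (lower row), and the bar is the group's mean. Points of both groups mix for most genes, and the DR D library of nhr-88 stands apart to the left.

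None of the 8 receptors listed for a counterpart across animals passed the test, a list that leaves out the HNF4-like nhr-64 and nhr-69. Of the 8 listed genes 2 had higher and 6 lower values in DR progeny. Their median log2 fold change was −0.09, against 0.01 over all tested genes. Within the first prefix they split 4 and 4 with a median of −0.0015. The median was −0.03 with the ribosomal RNA covariate or with DR C and DR D left out together, −0.06 without DR D and −0.14 without AL A. The gene nhr-8 encodes a relative of DAF-12 that acts in cholesterol balance and toxin resistance. It had 29.3, 36.9, 23.04 and 20.7 CPM in DR A, B, C and D, against 36.2, 32.9 and 33.3 CPM in AL libraries (log2 fold change −0.31 ± 0.17, SE). DR B lay above all AL libraries and the other DR libraries below them. The gene nhr-41, counterpart of the mammalian testicular receptors, had 24.9, 27.7, 21.8 and 15.96 CPM in DR and 31.01, 30.3 and 26.2 CPM in AL libraries (log2 fold change −0.36 ± 0.16, SE; adjusted p = 0.454, edgeR). DR B overlapped AL C there, and a transfer RNA gene lies opposite nhr-41.

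The NR5A receptor gene nhr-25, needed for epidermal development and moulting, averaged 56.9 ± 6.40 CPM in DR and 60.1 ± 6.79 CPM in AL progeny. The NR4A receptor gene nhr-6, needed for the spermatheca, averaged 65.2 ± 2.60 and 69.03 ± 11.7 CPM in DR and AL progeny. For nhr-25 the difference was smaller than the SD of either group, and for nhr-6 smaller than that of AL progeny only. The most abundant of the listed conserved receptors, nhr-48, of the DAF-12 group, averaged 91.7 ± 12.0 CPM in DR and 98.8 ± 3.92 CPM in AL progeny. The tailless counterpart nhr-67 averaged 7.24 ± 1.23 CPM in DR and 7.10 ± 0.872 CPM in AL progeny.

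Receptors of fat metabolism and fasting did not pass the test either, with 3 of 8 higher and 5 lower in DR progeny and a median log2 fold change of −0.10. The median was −0.05 without AL A, and within the second prefix the list split 4 and 4 with a median of 0.01. The gene nhr-80, which drives fatty acid desaturation with nhr-49, had 21.1, 24.5, 22.1 and 21.3 CPM in DR and 26.3, 21.4 and 26.8 CPM in AL libraries (log2 fold change −0.16 ± 0.11, SE). AL B lay among the DR libraries. The gene nhr-62 is known to be required for the longer life of diet-restricted worms. It had 6.82, 7.04, 9.33 and 8.62 CPM in DR and 9.55, 9.91 and 7.53 CPM in AL libraries, with overlap (log2 fold change −0.18 ± 0.16, SE; adjusted p = 0.696, edgeR). The NHR-49 partners nhr-66 and nhr-13 had log2 fold changes of −0.10 ± 0.09 and 0.14 ± 0.13 (SE), and the HNF4-like nhr-64 and nhr-69 had −0.22 ± 0.13 and 0.00 ± 0.09.

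The 3 diet receptors, all lower in value, had a median log2 fold change of −0.11, −0.17 without AL C and −0.06 with the ribosomal RNA covariate. The genes nhr-10 and nhr-68 switch on the propionate shunt when vitamin B12 is scarce, and nhr-114 protects from low vitamin B12 through the methionine cycle. In nhr-10 the DR libraries had 37.8, 38.3, 41.6 and 32.9 CPM, against 40.2, 44.5 and 37.3 CPM in AL libraries. In nhr-114 the DR libraries had 21.9, 25.1, 23.1 and 20.3 CPM, against 27.4, 24.3 and 23.8 CPM in AL libraries. Groups overlapped for both, and nhr-68 averaged 8.97 ± 1.09 CPM in DR and 8.998 ± 1.92 CPM in AL progeny.

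Stress and defence receptors split 2 higher and 3 lower, with a median log2 fold change of −0.03. Without AL A or without DR D they split 3 higher and 2 lower, with medians of 0.06 and 0.07, so that single libraries set the sign. The receptor gene nhr-86, whose product senses a bacterial metabolite and turns on defence genes, averaged 17.6 ± 1.96 CPM in DR and 17.5 ± 1.21 CPM in AL progeny. The gene nhr-57, a marker of the hypoxia response, averaged 14.6 ± 2.78 CPM in DR and 12.8 ± 1.22 CPM in AL progeny. The gene nhr-14, which acts in iron uptake and immunity, averaged 86.6 ± 11.4 CPM in DR and 100.5 ± 6.81 CPM in AL progeny (log2 fold change −0.21 ± 0.11, SE). Of 6 receptors listed for tissue roles, nhr-2, nhr-73 and nhr-74 are among the genes outside the deposited table. The other 3 were nhr-40, the excretory cell gene nhr-31 (−0.10) and the seam cell gene nhr-60 (0.13). Over the role lists together 9 members had higher and 18 lower values in DR progeny, with a median of −0.08. Of all tested genes 48.4% were lower. Members of the role lists were also more abundant per length than the others. Of the 70 members above 17.9 CPM, with or without a listed role, 49 were lower.

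Across the whole family no member passed the test between DR and AL progeny. Of the 209 genes 109 had higher and 100 lower values in DR progeny, and the median log2 fold change was 0.01, as it was over all 14867 tested genes. At an adjusted p under 0.05 (edgeR quasi-likelihood test) 0 members were called in either direction, where 0.0135% of all tested genes were called higher and 0.0% lower. At an unadjusted p under 0.05, 9 members were higher (4.31%, against 5.39% of all tested genes) and 15 were lower (7.18%, against 5.35%). For 14 members the lowest DR library exceeded the highest AL library (6.70%, against 5.97% of all tested genes), and for 10 members the highest DR library fell short of the lowest AL library (4.78%, against 5.88%). These shares lie near those of all genes. The 15 lower members became 4 without AL A, 8 without AL B, 7 without AL C and 5 without DR D, and the 9 higher members became 5 without AL B. Shares of all tested genes in those fits are not given here, so these falls cannot be read as a trait of the receptors. No member was called by DESeq2 (0.276% of all tested genes called), by the edgeR exact test (0.161%) or by limma-voom (0.0%). No member had an adjusted p under 0.05 in the authors' deposited table, where 0.283% of its genes did. The smallest adjusted p of a member in the authors' deposited table was 0.169, for nhr-7.

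The fold changes were small. Of the members 130 (62.2%) had a log2 fold change within 0.2 of 0, against 61.9% of all tested genes, and 204 (97.6%) lay within 0.5, against 91.1%. The median SE of a member's log2 fold change was 0.15. Within groups the median SD of log2 CPM was 0.19 for members and 0.20 for all tested genes. A miss of the threshold at this spread does not show that a receptor's RNA was equal in both groups. With the ribosomal RNA share as a covariate 5 members had an unadjusted p under 0.05 (2.39%, against 5.21% of all tested genes). Within the second file-name prefix alone, with DR D as the lone DR library, assumed to vary like the AL libraries, 2 members were called higher (nhr-216 and nhr-65, where 1.27% of all tested genes were called) and 4 lower (nhr-88, nhr-41, nhr-18 and nhr-8, where 2.82% were). Of these nhr-65 is named after its value was seen. These calls compare DR D with AL B and AL C, not the groups.

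**Figure D2:**
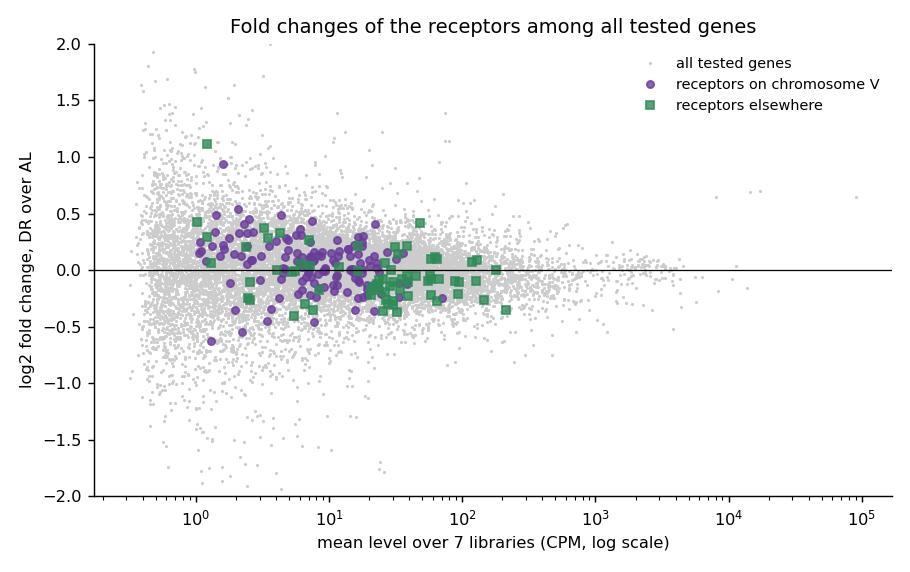
Log2 fold change of DR over AL against mean level in CPM (log axis) for all tested genes (grey) and the receptor genes, purple circles for chromosome V and green squares for other or unknown positions. The axis stops at 2 log2 units in either direction and leaves out a few weak genes. Receptors lie inside the grey cloud, with chromosome V members mainly to the left.

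The receptor with the largest fold change was nhr-235, a weakly expressed gene on chromosome II. It had 1.16, 1.49, 1.82 and 1.79 CPM in DR A, B, C and D, against 0.648, 0.944 and 0.575 CPM in AL A, B and C. All DR libraries lay above all AL libraries (log2 fold change 1.12 ± 0.32, SE; adjusted p = 0.372, edgeR), on 12 to 35 counts per library. The deposited table asked for more than 1 CPM in 3 libraries, and nhr-235 met that through its DR libraries alone. Its place among the members thus rests on the same difference. Within the first and second prefixes it was 1.19 and 1.25. The gene next to it by sequence name, nhr-234, had 4.88, 4.601, 4.74 and 4.596 CPM in DR and 4.10, 3.54 and 3.60 CPM in AL libraries, again without overlap (0.33 ± 0.16, SE). It is named here after its values were seen.

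Counted at greater depth was nhr-7, with 573 to 1086 counts per library. It had 52.5, 48.6, 53.3 and 61.5 CPM in DR libraries, against 40.7, 33.8 and 46.7 CPM in AL libraries. The lowest DR library lay just above the highest AL library. The mean was 53.98 ± 5.39 CPM in DR (SD, n = 4) and 40.4 ± 6.45 CPM in AL progeny (SD, n = 3), a log2 fold change of 0.42 ± 0.12 (SE; adjusted p = 0.372, edgeR). It was 0.34 and 0.61 within the prefixes and 0.32 if DR C and DR D were left out together. No gene overlaps nhr-7 in the annotation.

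The next genes on the higher side were both annotated as pseudogenes on chromosome V. The pseudogene nhr-220 had 1.64, 1.76, 1.98 and 2.68 CPM in DR and 1.04, 1.36 and 0.767 CPM in AL libraries. Its AL libraries alone would not have met the filter of the deposited table. The pseudogene nhr-194 had 4.497, 4.47, 5.79 and 5.23 CPM in DR and 3.58, 3.54 and 3.55 CPM in AL libraries. Neither overlapped between the groups. Of the remaining 4, nhr-139 (log2 fold change 0.43), nhr-120 (0.22) and nhr-110 (0.30) did not overlap between groups. In nhr-216 (0.40) DR C, at 18.4 CPM, lay below AL C at 20.6 CPM. The 6 adjusted p values ran from 0.376 to 0.451 (edgeR).

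On the lower side nhr-19 came first, with 32.2, 25.8, 31.4 and 25.7 CPM in DR A, B, C and D, against 40.04, 32.6 and 38.7 CPM in AL A, B and C. The highest DR library lay just under AL B (log2 fold change −0.37 ± 0.11, SE; adjusted p = 0.376, edgeR). It was −0.43 and −0.46 within the prefixes and −0.36 if DR C and DR D were left out together. The mitochondrial ribosomal protein gene mrpl-53 overlaps nhr-19 on the opposite strand.

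The gene nhr-128 had 7.93, 5.64, 7.09 and 6.0 CPM in DR and 10.2, 8.08 and 9.16 CPM in AL libraries (log2 fold change −0.46 ± 0.15, SE). Its groups did not overlap, and neither did those of nhr-108 (−0.45) and nhr-16 (−0.36). Of these nhr-108 overlaps other genes on the opposite strand. The other 4 genes, nhr-133 (−0.36), nhr-97 (−0.27), nhr-34 (−0.27) and nhr-99 (−0.36), had at least 1 DR library inside the AL range. DR D was the lowest library for each of these 4. For the most abundant, nhr-97, it had 117 CPM, against 134 to 155 CPM in the other DR libraries and 150 to 172 CPM in AL libraries.

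**Figure D3:**
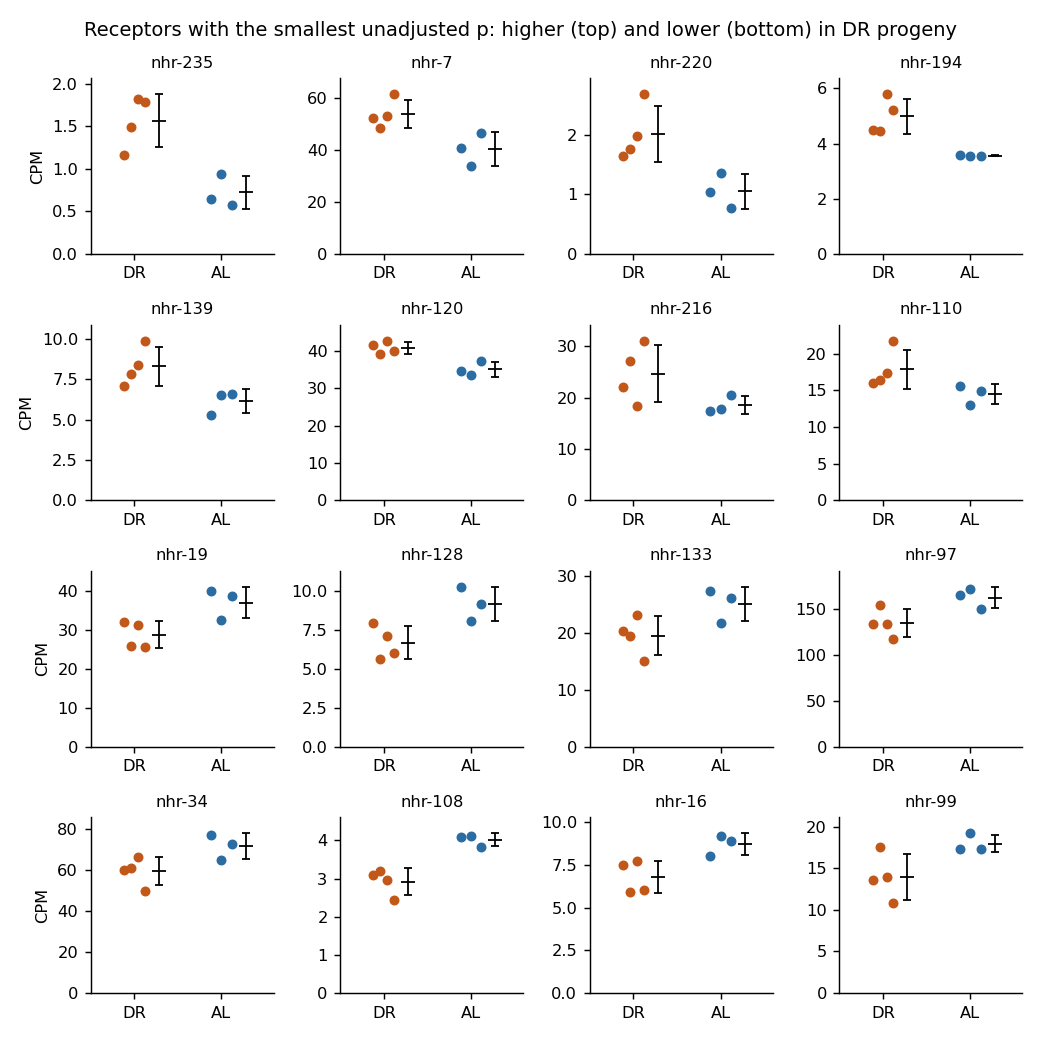
CPM in each library for the 8 receptors with the smallest unadjusted p on the higher side (upper rows) and on the lower side (lower rows), DR left of AL, with the mean and SD in black. Groups overlap for nhr-216, nhr-133, nhr-97, nhr-34 and nhr-99, and no gene passed the test over all genes.

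Chromosome V holds 138 of the members (66.03%), and more of these had higher than lower values in DR progeny, while members elsewhere leaned the other way. On that chromosome 85 members had higher and 53 lower values in DR progeny, with a median log2 fold change of 0.07, against 0.02 over all tested genes of chromosome V. On the other chromosomes 23 members were higher and 47 lower, with a median of −0.09, against 0.01 over all tested genes there. Scaled by library size only, chromosome V members had 74 higher and 64 lower, with a median of 0.02. That scaling moved all genes down, to a median of −0.03 over all tested genes. All tested genes of chromosome V then had 1493 higher and 1715 lower. The difference between chromosome V members and members elsewhere was not tested. Level and length moved with it. Chromosome V members had a median level of 6.07 CPM per kb, and members elsewhere had 15.01 CPM per kb. Of the 70 members with a mean under 6.28 CPM, 50 were higher in DR progeny, against 53.4% of all tested genes of that level. Among these weak members 41 were higher and 13 lower on chromosome V, and 8 were higher and 7 lower elsewhere. Of all tested genes of that level 53.8% were higher both on chromosome V and elsewhere. Members had passed the filter of the deposited table, which these tested genes need not have passed. A weak gene can pass it through DR libraries alone, and the DR group has more libraries than the AL group. That can tilt weak members toward higher values, so their counts cannot be set against the shares of all tested genes. How much of the lean of weak members comes from the filter was not tested. Of the 70 members above 17.9 CPM, 21 were higher, against 45.6% of all tested genes of that level. Among these abundant members 10 were higher and 13 lower on chromosome V, where 46.5% of all tested genes of that level were higher. Elsewhere 11 were higher and 36 lower, against 45.6% higher. Of the members with the shortest exons (up to 1316 bases) 41 were higher and 29 lower, where 59.4% of all tested genes of that length were higher. Of those with the longest (over 1566 bases) 29 were higher and 40 lower, where 42.8% of all tested genes were higher. The members' lean with length was close to that of all genes. With DR C and DR D left out together the chromosome V median was −0.005 and that of the other chromosomes −0.08. The chromosome V median was −0.03 within the first prefix, 0.01 without DR C and 0.02 without AL B. The median of the other chromosomes was −0.05 without DR D and −0.003 with the ribosomal RNA share as a covariate.

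Many receptor genes lie side by side, and some of these runs leaned one way. A run was at least 3 members in a row with at most 2 other protein-coding genes between neighbours, which gave 13 runs with 77 members. The run of nhr-18 on chromosome V (nhr-18, nhr-56, nhr-96, nhr-103, nhr-126, nhr-128, nhr-133, nhr-134 and nhr-184) had lower values for 9 of 9 members, with a median log2 fold change of −0.19. Its leading gene nhr-18 had 70.8, 64.4, 79.0 and 47.1 CPM in DR A, B, C and D, against 80.7, 71.5 and 80.1 CPM in AL libraries. The mean log2 level of the run, centred per gene, was 0.005, −0.173, 0.101 and −0.317 in DR A, B, C and D, against 0.137, 0.064 and 0.183 in AL A, B and C. DR D was lowest, and DR C lay inside the AL range. The median of the run was −0.15 without DR D, −0.20 with DR C left out as well, and −0.13 and −0.56 within the prefixes.

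The largest run, 12 genes of chromosome V with nhr-55 and nhr-99 among them, had 11 lower and 1 higher with a median of −0.10. It had 8 lower and 4 higher without AL A, and 7 lower and 5 higher within the second prefix. Its median was −0.23 within the first prefix and −0.19 with DR C and DR D left out together. The 5 genes of the nhr-87 run on chromosome IV were all lower (median −0.17). Of these 3 were lower without DR D (−0.10) and 3 with the ribosomal RNA share as a covariate (−0.05), and the median was −0.04 and −0.36 within the prefixes. All lower were also the 3 genes nhr-16, nhr-109 and nhr-273 on chromosome II (−0.26, and −0.13 with that covariate), of which the last pair overlap each other. Of the runs with all members on the higher side, the 6 genes of the nhr-136 run had a median of 0.04, the 4 of the nhr-147 run 0.11, and the 3 of the nhr-182 run 0.13. The nhr-136 run had 2 higher and 4 lower without DR C (median −0.04). When scaled by library size only it had 3 of each (median 0.003, against −0.03 over all tested genes). The nhr-182 run had 0 higher and 3 lower within the first prefix (−0.04), and its median was 0.05 without AL B, 0.06 without DR D and 0.23 without AL A. The nhr-147 run had a median of 0.06 without AL C. The other 6 runs held both directions. No member of any run passed the test, and near-identical neighbours could share reads.

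**Figure D4:**
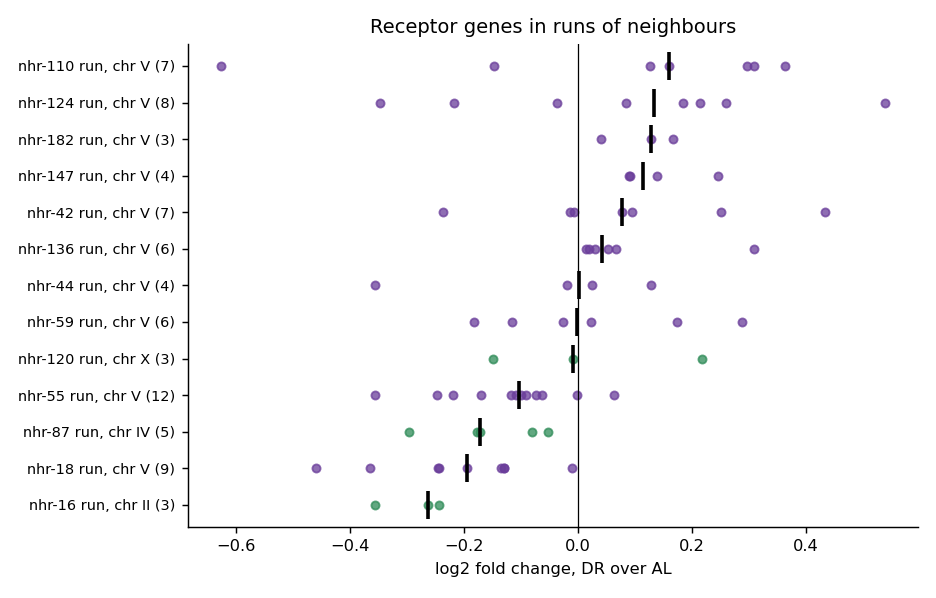
Log2 fold change of DR over AL for each member of the 13 runs of neighbouring receptor genes, with the run's median as a black bar, purple for chromosome V and green for other chromosomes. Each run is named by its first gene in number order, with its member count in brackets. The nhr-16, nhr-18 and nhr-87 runs lie wholly left of 0.

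Among members averaging at least 5 CPM some varied between libraries of the same diet by more than their means differed between the diets. The largest spread among these was that of nhr-157, with an SD of log2 CPM of 0.55 within groups. It had 4.45, 8.30, 10.01 and 4.02 CPM in DR A, B, C and D, against 9.29, 5.60 and 8.49 CPM in AL A, B and C. DR A, DR D and AL B were low. The gene nhr-277 was low in the same libraries, with 4.01, 6.90, 9.07 and 5.04 CPM in DR and 6.91, 4.07 and 7.05 CPM in AL libraries. Next to nhr-157 in number and sequence name, nhr-158 had 4.55, 10.7, 10.6 and 7.02 CPM in DR and 8.03, 7.37 and 9.92 CPM in AL libraries. The gene nhr-11 differed in pattern, with AL A highest at 8.29 CPM and DR A lowest at 3.09 CPM. The log2 fold changes were −0.22 for nhr-157, 0.05 for nhr-277, −0.04 for nhr-158 and −0.41 for nhr-11, each with an SE of 0.28 to 0.34. Leaving out 1 library put nhr-157 between −0.05 (without DR D) and −0.47 (without DR C), and nhr-11 between −0.16 (without AL A) and −0.70 (without DR C).

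**Figure D5:**
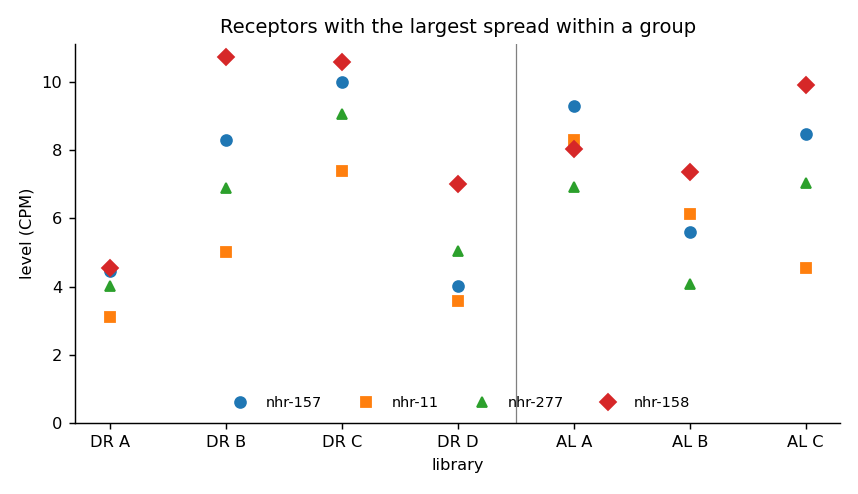
CPM in each library, DR left of the line and AL right of it, for the 4 receptors with the largest SD of log2 CPM within groups among members averaging at least 5 CPM. DR A, DR D and AL B are low for nhr-157 and nhr-277, so that the spread runs across the diets.

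Single libraries also set many of the members' extremes. DR D was the lowest library for 58 members (27.8%, against 22.4% of all tested genes) and AL B for 51 (24.4%, against 18.8%). DR C was the highest for 45 members (21.5%, against 17.2%) and the lowest for 10 (4.78%, against 16.5%). AL A was the highest for 40 members (19.1%, against 11.4%).

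Other genes of the receptors' pathways were described from lists of known partners and targets, and none of their members passed the test over all libraries. Within the second prefix the values compare DR D with AL B and AL C. There the log2 fold change was 1.18 for strm-1, 1.12 for mlt-10, −0.62 for sams-1 and −0.52 for ahcy-1. For irg-4 it was −4.06, on a DR D value below the counting limit. These genes had been picked for a small p over all libraries, DR D included. Of 5 receptor genes with other names 1 was higher and 4 lower. The dauer and lifespan receptor gene daf-12 had 68.3, 69.1, 56.2 and 67.2 CPM in DR and 71.3, 74.6 and 71.4 CPM in AL libraries, without overlap (log2 fold change −0.15 ± 0.10, SE; adjusted p = 0.582, edgeR). Of 7 tested cofactor and ligand genes 5 were higher and 2 lower. The Mediator subunit gene mdt-15, which serves NHR-49, had 491, 489, 468 and 483 CPM in DR and 580, 530 and 520 CPM in AL libraries, without overlap (−0.17 ± 0.09, SE). For the acetyltransferase gene cbp-1 it was −0.20. The sterol methyltransferase gene strm-1 stood at 12.3 CPM in DR D, against 5.42 to 7.45 CPM in the other DR libraries and 4.41 to 5.51 CPM in AL libraries (0.63 ± 0.26, SE).

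Targets of NHR-49 had a median log2 fold change of −0.25, with 3 higher and 5 lower of 8 tested. The stearoyl-CoA desaturase gene fat-6 had 256, 307, 314 and 228 CPM in DR and 484, 283 and 429 CPM in AL libraries. AL B lay among the DR libraries (log2 fold change −0.53 ± 0.18, SE; adjusted p = 0.376, edgeR). The fasting-induced acyl-CoA synthetase gene acs-2 had 3.61 to 18.8 CPM in DR libraries, against 34.6, 6.37 and 5.08 CPM in AL A, B and C, so that AL A alone was high. The desaturase gene fat-7 had no counted read in any library. The files do not show how reads that fit several genes were placed, so this 0 does not show that its RNA was absent. Both acs-2 and fat-7 are named after their values were seen. Propionate shunt genes split 3 higher and 2 lower, and methionine cycle genes 3 and 3. Of the methionine cycle, the S-adenosylmethionine synthetase gene sams-1 had 262, 272, 261 and 200.4 CPM in DR and 332, 321 and 299 CPM in AL libraries (−0.35 ± 0.12, SE; adjusted p = 0.376, edgeR). The adenosylhomocysteinase gene ahcy-1 had 479, 547, 594 and 442 CPM in DR and 642, 629 and 644 CPM in AL libraries (−0.31 ± 0.11, SE; adjusted p = 0.397, edgeR). Neither gene overlapped between the groups, and DR D was the lowest library for both.

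Of 4 detoxification and defence targets only irg-4 passed the filter on low counts, on 2 to 45 counts per library. It had 0.128 to 0.886 CPM in DR and 0.605 to 2.36 CPM in AL libraries (−1.59 ± 0.55, SE; adjusted p = 0.376, edgeR). The lowest value, in DR D, lay below the counting limit of 0.180 CPM of that library. The log2 fold change of irg-4 was 0.17 within the first prefix. It was −4.06 within the second, where DR D is the lone DR library. Moulting and cuticle genes split 3 higher and 6 lower of 9 tested. Among them mlt-10 had 8.66 to 12.3 CPM in DR and 5.66 to 9.37 CPM in AL libraries (0.58 ± 0.20, SE), while noah-1 stood highest in DR B (18.2 CPM) and AL B (22.9 CPM).

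Markers of tissues moved between the libraries too. Summed intestine markers, 8 of 8 detected, ran from 4604 to 7042 CPM in DR and from 6754 to 8081 CPM in AL libraries. Summed body wall muscle markers, 4 of 5 detected with hlh-1 at 0 in every library, ran from 6337 to 8860 CPM in DR and from 8987 to 9262 CPM in AL libraries, without overlap. DR D was the lowest library in both sums. Most of the muscle sum was unc-54, with 4090 to 6102 CPM in DR and 6111 to 6402 CPM in AL libraries. The other detected muscle markers, myo-3, unc-15 and unc-22, each overlapped between the groups. Most of the intestine sum was asp-1 and ifb-2, and of the 8 intestine markers 2 were higher and 6 lower. Why hlh-1 had no count was not tested. Sums of the pharynx, neuron, hypodermis and germline markers overlapped between the groups. Adult and oocyte markers summed to 594 CPM in DR C, against 80.6 to 94.3 CPM in the other DR libraries and 90.7 to 120 CPM in AL libraries. In whole larvae fewer cells of a type and less RNA per cell cannot be told apart, and the part of these markers in the receptors' values was not tested.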

How the data were processed

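The data were poly(A) RNA sequencing libraries of whole starved larvae, 4 DR and 3 AL. The submitters' processing notes name Bowtie 1.1.2, HTSeq and edgeR; genome build and annotation: not given in the sources used here. The deposited files hold raw counts per feature, and a deposited workbook holds the authors' CPM, log2 fold changes, p-values and adjusted p-values for 13436 genes.

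Symbols came from the authors' deposited table, and chromosomes, lengths and overlaps from Ensembl release 115 by sequence name. Counts were tested over all libraries in R 4.3.3 with edgeR 4.0.16 (TMM, filterByExpr, robust quasi-likelihood F-test, two-sided), with Benjamini-Hochberg adjustment over 14867 genes at 0.05. The common biological coefficient of variation was 0.162. Printed CPM use TMM factors, and log2 levels a prior count of 2. Reads are not independent molecules, so counting limits (3 counts) cover counting error only. The fit was also run on simulated counts that gave every gene the common coefficient of variation. Their changes were larger than those of most members, so that run does not show how well changes of the members' size are found. Members and lists were chosen with earlier results of these data known. Named genes were the 8 smallest p in each direction, the 6 highest per length, the 4 largest within-group spreads, role-list members and up to 3 genes a companion list; other names are marked. Runs, chromosome groups and the alternatives for these and for companion genes were chosen after seeing the data. Alternatives covered other normalisations, filters and tests (DESeq2 1.42.0, limma-voom with limma 3.58.1), covariates, prefixes and left-out libraries.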

Additional observations from a re-analysis of the deposited data

Results flagged for a closer look

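Among the 45 values checked in the 4 DR libraries, 6 had a library far from the other 3, and chance flags about 1 in 20 such groups. For nhr-40, DR C had 116 CPM against 121 to 122 CPM in the other DR libraries, and for nhr-49, DR D had 131 CPM against 121 to 122 CPM. Both gaps are small beside the levels. DR D stood apart in its ribosomal RNA share of 22.5% and in sams-1, at 200.4 CPM against 261 to 272 CPM in the other DR libraries. DR C stood apart in the yolk protein genes vit-2, at 290 CPM, and vit-6, at 283 CPM.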

How the results depend on the processing

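Over 23 alternatives the median log2 fold change of the members moved by less than the spread between libraries, and no member was called except within the second file-name prefix, with 2 higher and 4 lower. Members higher at an unadjusted p under 0.05 numbered 5 with library size alone, 4 and 17 within the first and second prefixes, 4 with the ribosomal RNA covariate, 3 with DR C and DR D left out together, and 5 to 13 with 1 library left out (5 without AL B). Members lower numbered 8 with the replicate block, 23 with the prefix as a covariate, 4 and 25 within the prefixes, 1 with the ribosomal RNA covariate, and 4 to 19 with 1 library left out (4 without AL A, 8 without AL B, 7 without AL C and 5 without DR D). For these fits, the ribosomal RNA covariate apart, shares of all tested genes at that p are not given here. The rise or fall of these counts thus cannot be read as a trait of the receptors. Within the prefixes AL A or DR D was also the lone library of its group. Correlations of the deviations from the group means were 0.197, 0.268 and −0.101 for libraries of the same letter. Those of different letters ran from −0.460 to 0.253. With so few libraries these values cannot tell whether the letters pair them. The replicate block called no member, and 7 were higher at an unadjusted p under 0.05.

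Among the 42 named genes checked under every alternative, the sign of 7 turned, and unnamed members of some runs turned too. The value of nhr-1, near 0 throughout, was 0.013 with the upper quartile, 0.00027 with CPM above 1 in 3 libraries, 0.026 with the replicate block, 0.051 with the ribosomal RNA covariate and 0.080 with DR C and DR D left out together. For nhr-277 it was −0.10 with the prefix as a covariate, −0.055 and −0.14 within the prefixes, and −0.14 with that pair left out. For nhr-158 it was 0.10 within the first prefix and 0.12 with the ribosomal RNA covariate, where nhr-157 was 0.21. For nhr-25 it was 0.10 within the first prefix and 0.026 with that pair left out. Within the second prefix nhr-49 was 0.029, and within the first irg-4 was 0.17. With 1 library left out nhr-1 ran from −0.064 to 0.029, nhr-277 from −0.18 to 0.22, nhr-158 from −0.20 to 0.17 and nhr-25 from −0.15 to 0.010. The causes were not tested. The 12 to 35 counts per library behind nhr-235 limit its precision.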
